A study of Homo sapiens with 10 samples.

Results

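The potassium channel genes were described across human embryonic stem cells (hESC) of the established line WA09 and the 4 cell types derived from them. Members were all symbols made of KCN, further capital letters and a closing number, in the 4 deposited tables, on chromosomes 1 to 22 and X. This gave 94 of 23018 symbols, and each of the 94 was present in all 4 tables. Where a symbol had several rows, the row with the highest mean level was taken. By symbol, 79 members encode pore-forming or silent channel subunits in 8 classes and 15 encode auxiliary subunits that form no pore of their own.

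Potassium channels let potassium ions leave or enter a cell along their gradient, and by doing so set the resting membrane potential, shape action potentials and take part in volume control and the cell cycle. Voltage-gated (Kv) channels open on depolarization, inward rectifiers (Kir) and two-pore channels (K2P) hold the resting potential, and calcium-activated channels couple it to intracellular calcium. Silent Kv subunits form no working channel alone and alter the Kv channels they join.

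Each of the 5 cell types had 2 poly-A RNA libraries, and the labels do not say whether the 2 came from separate cultures. All cells were WA09 at passages 52 to 58, on matrigel, and hESC were kept for 4 days with 8 ng/mL of FGF, 200 ng/mL of IGF-I and 10 ng/mL each of activin A and heregulin. Definitive endoderm (DE) had 4 days of FGF with activin A raised to 100 ng/mL, no IGF-I or heregulin, and Wnt-3a at 25 ng/mL for the opening day. Splanchnic mesoderm (MESO) had 4 days of all the hESC factors, joined by 25 ng/mL of Wnt-3a and 100 ng/mL of BMP-4. Neural progenitor cells (NPC) had 6 days of IGF-I and heregulin with SB431542, an activin receptor inhibitor, and LDN, a BMP receptor inhibitor, at 500 nM. Pre-neural crest cells (NCSC) had 6 days of FGF, IGF-I and heregulin with SB431542 and with BIO, which blocks the kinase GSK3. NPC and NCSC were seeded at 90000 cells per cm2 and the other cell types at 50000.

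Levels are FPKM (fragments scaled by transcript length and library size). Each table gives 1 value per cell type, which leaves the library spread and the read depth unknown. A member rose or fell where the q-value of the authors' deposited table for that derivative was below 0.05, and it counted as detected at 1 FPKM or more. Changes are differences of log2(FPKM + 1), derivative minus hESC, which understate the change of genes with low levels, while folds are plain ratios of FPKM. The 4 comparisons share the hESC samples, and no test was made between derivatives. These were bulk cultures, in which fewer cells of a type and less RNA per cell cannot be told apart.

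Cell identity was checked on marker genes of the labelled types. All 7 mesoderm markers rose in MESO, 5 of 6 neural progenitor markers rose in NPC and 5 of 7 endoderm markers rose in DE. Of 8 neural crest markers 4 rose in NCSC, among them PAX3 (0.0169 to 18.6 FPKM), but FOXD3 was listed at 0, TFAP2A at 0.0463 and PAX7 at 0.0512 there. Of the same 8 markers 4 rose in MESO and 3 in NPC, so that the count does not single out NCSC. The 8 summed to 172 FPKM in MESO and 47.7 in NCSC. In MESO all 6 amnion and trophoblast markers also rose, from a summed 19.9 FPKM in hESC to 591.

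Before the results, the rows in doubt are set out. The row that the rule takes for KCNQ1 was listed at 224 to 521 FPKM in hESC and at 0 in all 4 derivatives, without a usable statistic. Its next highest row held 0.639 to 0.918 FPKM in hESC and 0.169 to 0.583 in the derivatives, and did not pass in any table. For KCNQ5 the NCSC table had 3 rows, with 41.6, 19.2 and 0.0796 FPKM in hESC, while the single row of the other tables held 0.0732 to 0.117. Neither gene is therefore described by a level from those rows, but the counts over all members keep them. KCND1 shared its row with GRIPAP1 in the MESO, NPC and NCSC tables, KCNJ14 shared its row with GRWD1 in all 4 and with a further gene in the NPC and NCSC tables, KCNK4 with TEX40 in 3, and KCNJ12 with KCNJ18 in all 4, so that the 94 symbols stood on 93 rows per table.

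In hESC, 29 of the 94 members were detected in all 4 hESC columns, KCNQ1 by its doubtful row among them, and 47 were below 1 FPKM in every column of every cell type. KCNG4, KCNK16 and KCNK18 were listed at 0 throughout. Among the members described here and outside the rows in doubt, the two-pore channel gene KCNK5 was the highest in hESC at 14.6 to 19.6 FPKM. Next in order stood the silent subunit gene KCNS3 at 10.9 to 12.6 and the two-pore channel gene KCNK1 at 9.41 to 13.7. The ranges of KCNS3 and KCNK1 overlapped. KCNK6 stood at 8.10 to 9.56 FPKM, KCNN2, a small-conductance calcium-activated channel gene, at 4.49 to 9.78, and KCNH2, the ERG channel gene known from cardiac repolarization, at 6.27 to 7.97. Over 29 members with a hESC median of at least 1 FPKM (without KCNQ1, KCNQ5 and KCND1), the highest and lowest of the MESO, NPC and NCSC tables' hESC values differed by a median factor of 1.13 and by at most 1.98. The DE table's hESC values were a median 1.19 times the mean of the other 3, with the lowest quotients 0.263 for KCNK4, whose row is merged in the other 3 tables, and 0.459 for KCNMA1 and 0.494 for KCNN2, whose rows had the same coordinates in all tables.

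**Figure D1:**
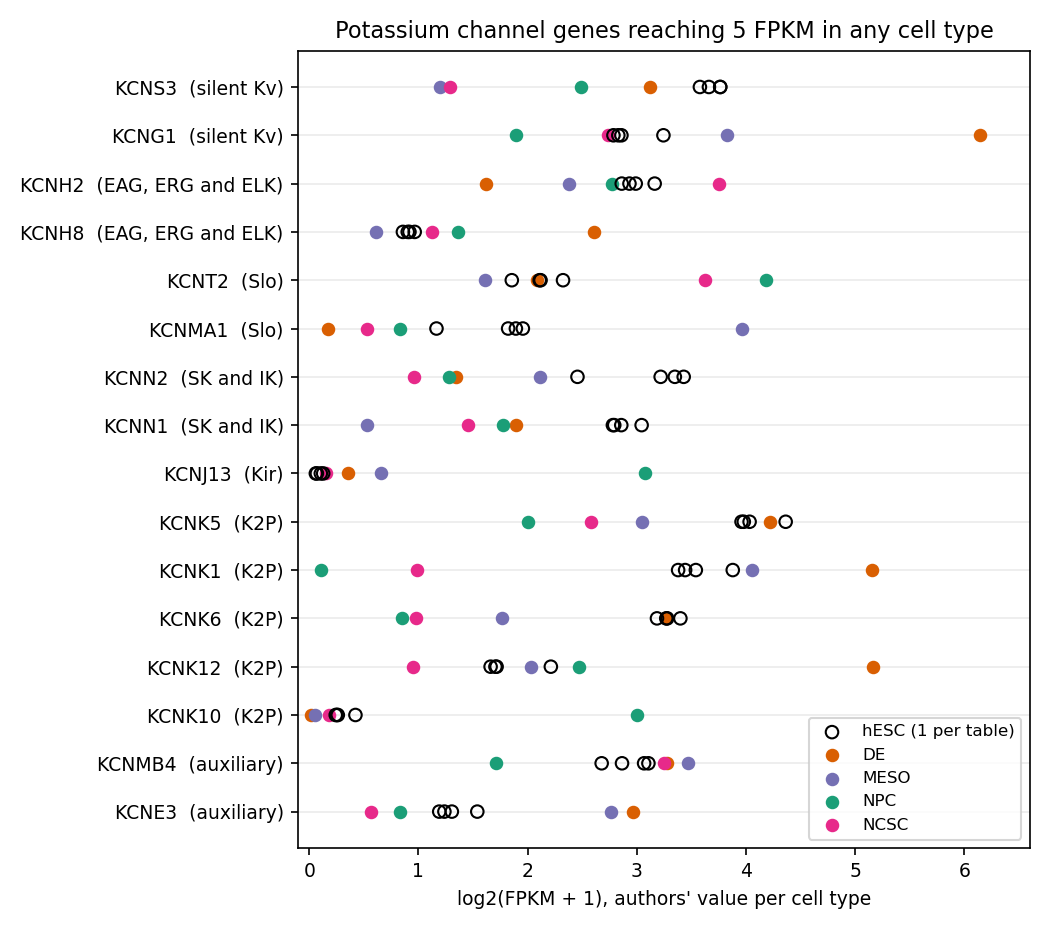
Level of 16 potassium channel genes that reached 5 FPKM in any cell type and whose rows are not in doubt, as log2(FPKM + 1) on the horizontal axis; open circles are hESC (1 per table) and filled circles the 4 derivatives. KCNG1 and KCNK12 lie far to the right of hESC in DE, KCNT2 and KCNK10 in NPC, and KCNK1 lies near 0 in NPC.

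Counted over all classes, 37 of the 94 members were called in at least 1 table. The share of all loci called in at least 1 table was not counted, so neither this number nor those by class can be set against it. In DE 1 of 55 tested members was called and it fell, or 1.82%, beside 0.426% of all tested loci called in either direction, 0.406% that rose and 0.0203% that fell. In MESO 4 of 49 tested members rose and 11 fell (8.16% and 22.4%), where 9.05% of all loci rose, 5.37% fell and 14.4% were called. In NPC 8 of 54 rose and 20 fell (14.8% and 37.0%), where 12.0% of all loci rose, 24.8% fell and 36.8% were called. In NCSC 5 of 48 rose and 17 fell (10.4% and 35.4%), where 10.2% of all loci rose, 19.7% fell and 29.9% were called. In MESO, NPC and NCSC the shares that rose were 8.16% to 14.8% where all loci gave 9.05% to 12.0%, and the shares that fell were above those of all loci, a difference that was not tested.

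Two-pore channels were the class with the highest summed level in hESC. Of their members 8 of 15 were called in any table, beside 5 of 10 silent Kv genes and 3 of 4 small- and intermediate-conductance calcium-activated channel genes. Their sum, without merged loci, was 40.1 FPKM in hESC and 16.0 in NPC, and 37.7 in hESC and 8.53 in NCSC. In MESO it was 37.98 and 29.2, and in DE 50.2 and 96.8. KCNK1 and KCNK12 made up most of the DE sum, and neither passed there. Of the 9 members tested in NPC 5 fell and 1 rose, and of the 8 tested in NCSC 5 fell and none rose. In MESO 2 of 8 fell, and in DE 1 of 8.

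KCNK1, a weakly conducting two-pore channel gene on chromosome 1 (233749749 to 233808258, hg19), was listed in hESC at 13.7, 9.41, 10.6 and 9.88 FPKM in the DE, MESO, NPC and NCSC tables. The derivatives stood at 34.7 in DE, 15.6 in MESO, 0.0799 in NPC and 0.977 in NCSC. It fell 133-fold in NPC (q = 0.0223 in the authors' deposited table) and 10.1-fold in NCSC (q = 0.000455 in the authors' deposited table). In DE and MESO it was the higher of the pair without passing. KCNK5, an alkaline-sensitive channel gene on chromosome 6 (39151747 to 39197334, hg19), stood at 17.6 FPKM in DE, 7.29 in MESO, 3.004 in NPC and 4.99 in NCSC, against 19.6, 14.8, 15.4 and 14.6 in hESC. It fell 5.12-fold in NPC and 2.92-fold in NCSC and did not pass in the others. KCNK6, a relative of KCNK1 on chromosome 19 (38810467 to 38822887, hg19), stood at 8.61 in DE, 2.40 in MESO, 0.805 in NPC and 0.970 in NCSC, against 9.56, 8.71, 8.65 and 8.10 in hESC. It fell 3.62-fold in MESO, 10.7-fold in NPC and 8.35-fold in NCSC, so that all 3 of these genes fell in both NPC and NCSC. These 2 cell types share SB431542, 6 days of culture, the denser seeding and the lack of activin A, which cannot be told apart. KCNK5 and KCNK6 were also below their hESC level in DE and MESO.

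KCNK10, which encodes a channel opened by stretch and polyunsaturated fatty acids, went the other way in NPC. It was listed at 0.193, 0.183, 0.341 and 0.199 FPKM in the hESC columns of the DE, MESO, NPC and NCSC tables and at 0.0110 in DE, 0.0383 in MESO, 7.03 in NPC and 0.135 in NCSC. The 20.6-fold rise in NPC had q = 0.000323 in the authors' deposited table, the lowest q of that table, which KCNK5, KCNK6 and other members share. In NCSC, MESO and DE the gene was not tested. KCNK12, a gene of the silent halothane-inhibited type, was 3.64 FPKM in hESC and 34.9 in DE, 9.58-fold, with q = 0.239 in the authors' deposited table. Its other derivatives stood at 3.08 in MESO, 4.56 in NPC and 0.938 in NCSC, none of which passed.

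KCNK9, an acid-sensitive channel gene expressed from the maternal allele, was the only member called in DE. It stood at 0.441 to 0.691 FPKM in hESC, was listed at 0 in DE, MESO and NCSC, where it passed, and at 0.0457 in NPC, where it did not. KCNK13 was 0.452 in hESC and listed at 0 in NCSC, where it also passed. KCNK17, another alkaline-sensitive channel gene, fell from 1.40 to 0.180 in NPC, and stood at 1.49 and 0.255 in NCSC without passing. KCNK4, of a mechanosensitive type and merged with TEX40, fell from 1.61 to 0.196 in NPC. KCNK2, KCNK3, KCNK7 and KCNK15 stayed below 1 FPKM in every column.

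**Figure D2:**
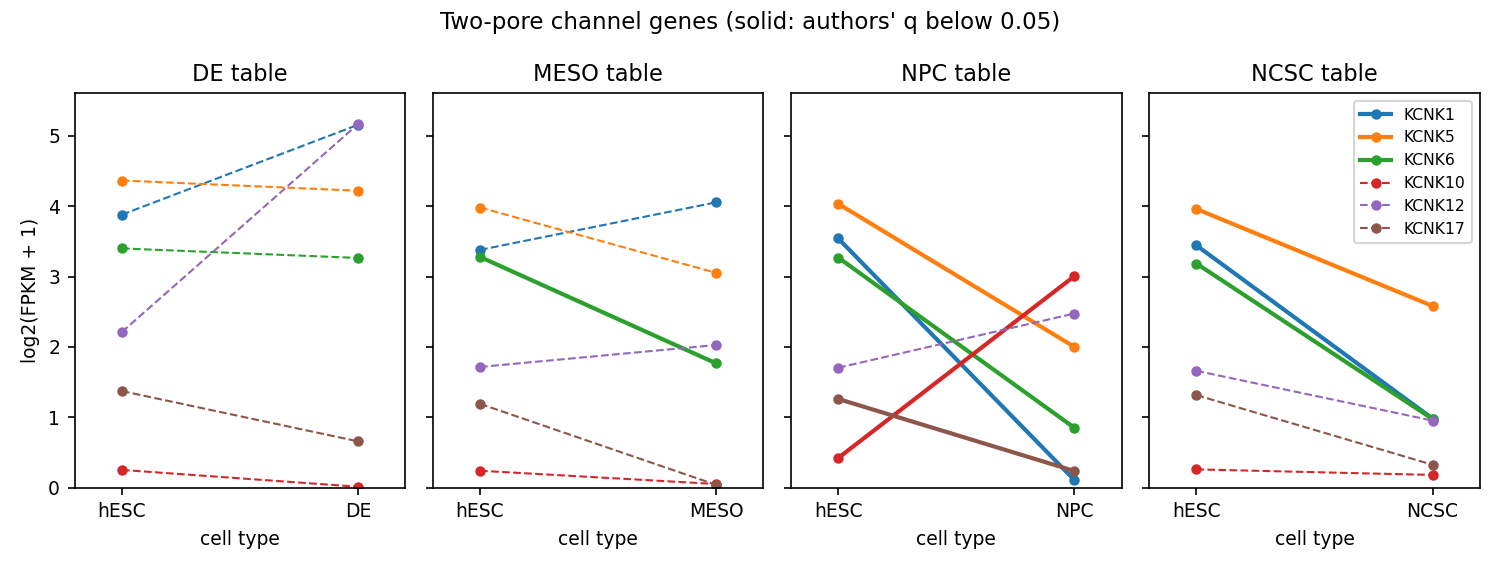
Levels of 6 two-pore channel genes as log2(FPKM + 1) on the vertical axis, hESC on the left and the derivative on the right of each panel, 1 panel per table; solid lines are pairs with the authors' q below 0.05. KCNK1, KCNK5 and KCNK6 drop together in NPC and NCSC, KCNK10 climbs in NPC alone, and in DE all lines are dashed.

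The promoters of these genes differed in base composition. Windows of 300 bases from RefSeq (GRCh38.p14), 250 before to 50 after the first listed start, are printed for the 3 two-pore genes that fell together and for KCNK10 and KCNT2, the members with the largest rises among those called in NPC on the log2(FPKM + 1) scale. They read 5′ to 3′ on the strand of the gene. Capitals mark the GC box GGGCGG and the E-box CACCTG on either strand.
KCNK1: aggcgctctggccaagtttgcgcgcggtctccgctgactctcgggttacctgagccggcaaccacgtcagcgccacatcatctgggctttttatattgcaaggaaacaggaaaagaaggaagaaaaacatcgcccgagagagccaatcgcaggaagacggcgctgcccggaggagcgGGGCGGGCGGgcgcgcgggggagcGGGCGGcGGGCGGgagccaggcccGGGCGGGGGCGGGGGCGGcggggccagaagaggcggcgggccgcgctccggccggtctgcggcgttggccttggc
KCNK5: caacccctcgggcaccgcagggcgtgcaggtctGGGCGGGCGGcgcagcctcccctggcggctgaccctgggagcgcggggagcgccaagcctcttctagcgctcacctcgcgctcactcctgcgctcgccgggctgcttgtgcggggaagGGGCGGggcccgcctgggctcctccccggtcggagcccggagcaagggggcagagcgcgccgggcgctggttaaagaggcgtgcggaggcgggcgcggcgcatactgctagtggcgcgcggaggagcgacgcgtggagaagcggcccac
KCNK6: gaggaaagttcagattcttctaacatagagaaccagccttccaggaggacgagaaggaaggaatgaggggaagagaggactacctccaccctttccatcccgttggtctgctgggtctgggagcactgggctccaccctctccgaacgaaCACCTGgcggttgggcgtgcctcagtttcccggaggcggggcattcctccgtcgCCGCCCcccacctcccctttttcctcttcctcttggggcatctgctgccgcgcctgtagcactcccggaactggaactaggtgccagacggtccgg
KCNK10: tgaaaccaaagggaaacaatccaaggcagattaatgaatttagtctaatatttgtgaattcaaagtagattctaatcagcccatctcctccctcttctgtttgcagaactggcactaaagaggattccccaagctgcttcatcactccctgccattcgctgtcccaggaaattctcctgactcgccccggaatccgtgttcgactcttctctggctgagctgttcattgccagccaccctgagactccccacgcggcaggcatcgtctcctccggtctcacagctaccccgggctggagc
KCNT2: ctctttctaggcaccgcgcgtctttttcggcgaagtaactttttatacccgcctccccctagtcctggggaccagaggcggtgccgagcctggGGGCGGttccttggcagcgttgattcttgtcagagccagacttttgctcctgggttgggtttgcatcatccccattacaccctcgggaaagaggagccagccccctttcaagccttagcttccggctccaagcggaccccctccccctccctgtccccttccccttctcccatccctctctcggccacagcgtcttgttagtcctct

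The KCNK1 window (chr1:233613856-233614155, plus strand) held 38 CpG and 7 GC boxes, and that of KCNK5 (chr6:39229426-39229725, minus strand) 39 CpG and 3 GC boxes. Overlapping boxes, of which both windows have some, were counted separately. KCNK6 (chr19:38319595-38319894, plus strand) held 16 CpG, 1 GC box and 1 E-box. KCNT2 (chr1:196608391-196608690, minus strand) held 15 CpG and 1 GC box, and KCNK10 (chr14:88326863-88327162, minus strand) 10 CpG and neither motif. GC boxes were in 44.7% and E-boxes in 20.6% of the 27195 RefSeq windows of the same length. A window was matched for 70 of the 94 members, of which 22 have further listed starts that were not used. The 21 matched members detected in all hESC columns had a median of 23 CpG, and 16 of them held a GC box. The 34 matched members below 1 FPKM everywhere had a median of 8.5 CpG and 18 held a GC box, beside a median of 14 CpG over all windows. These counts describe sequence and are not evidence of binding.

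Inward rectifiers were low in hESC: outside the row shared by KCNJ14 and GRWD1, the highest were KCNJ11 at 1.93 to 2.09 FPKM and KCNJ4 at 1.37 to 2.11. KCNJ2, which carries the classical strong inward rectifier of heart and skeletal muscle, is on chromosome 17 (68165675 to 68176183, hg19). Its hESC level was 0.322, 0.216, 0.261 and 0.240 FPKM in the DE, MESO, NPC and NCSC tables, and the derivatives stood at 1.11, 4.78, 0.249 and 0.137. Its level rose 22.2-fold in MESO, the highest fold among the 4 members that rose there, and the authors' deposited table gives q = 0.000868. It did not pass in DE. KCNJ11, the pore of ATP-sensitive channels, fell from 1.93 to 0.178 in MESO, and was 3.07 in NCSC and 2.43 in NPC against 1.96 and 2.09 in hESC without passing. KCNJ10, a glial rectifier gene, fell from 0.640 to 0.0982 FPKM in MESO, from 0.738 to 0.0902 in NPC and from 0.684 to 0.102 in NCSC, all below the detection level. KCNJ8, the other ATP-sensitive pore, fell from 0.797 to 0.0895 in NCSC.

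Both subunits of the cardiac G protein-gated channel stood higher in DE without passing: KCNJ3 at 0.237 FPKM in hESC and 3.93 in DE, and KCNJ5 at 0.0754 and 1.87. Cardiomyocyte markers summed to 7.52 FPKM in hESC and 104 in DE, of which MYL7 made up 102, while MYH6 was 0.0103 and MYH7 was listed at 0, and their part in these levels was not tested. KCNJ13, a rectifier gene of transporting epithelia, was 0.0930 in hESC and 7.43 in NPC (q = 0.0790 in the authors' deposited table). Its log2 ratio divided by the authors' statistic was 8.38, while the median of that quotient over NPC loci with a mean of at least 20 FPKM was 0.433. The level of KCNJ13 in NPC is therefore given as uncertain. The shared KCNJ14 row fell from 41.0 to 10.2 FPKM in NPC, and the file does not say which of its genes carried the reads.

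Voltage-gated channels of the Kv1 to Kv4 families had 17 members, 12 of them below 1 FPKM in every column. In NPC 3 rose and 3 fell of 9 tested, in NCSC 1 rose and 2 fell of 6, in MESO 1 of 6 fell and in DE none of 6 passed. KCNC1, of the fast-deactivating family used in rapid firing, rose from 0.0588 to 0.450 FPKM in NPC and stayed below 1. KCNC4, of the same family, fell from 3.38 to 1.14 in NPC, and was 3.57 and 2.50 in NCSC without passing. KCNA6, a member of the Shaker family, fell from 3.11 to 1.505 in NPC and from 2.92 to 0.860 in NCSC, but was 2.80 in hESC and 4.05 in MESO without passing.

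KCND2, the pore of a fast transient current in dendrites, was 1.63, 1.55, 1.83 and 1.70 FPKM in the hESC columns of the DE, MESO, NPC and NCSC tables. It fell to 0.127 in MESO, 0.798 in NPC and 0.261 in NCSC, while DE stood at 2.57 without passing. KCND1, read only in the DE table without its neighbour, was 3.62 in hESC and 2.31 in DE and did not pass. None of the 17 genes passed in DE, where 11 were not tested.

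Among the silent Kv subunits, KCNS3 and KCNG3 fell in all but DE. KCNS3 fell from 10.9 to 1.29 FPKM in MESO, from 12.6 to 4.63 in NPC and from 11.7 to 1.44 in NCSC, and stood at 12.6 and 7.73 in the DE table. KCNG3 fell from 3.17 to 0.203 in MESO, 3.64 to 0.378 in NPC and 3.42 to 0.389 in NCSC, and stood at 2.93 and 0.232 in the DE table without passing there (q = 0.553 in the authors' deposited table).

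KCNG1, on chromosome 20 (49620192 to 49639675, hg19), reached the highest level of any member outside the rows in doubt. It was 8.48, 6.12, 6.26 and 5.90 FPKM in the hESC columns of the DE, MESO, NPC and NCSC tables and 69.8 in DE, 13.2 in MESO, 2.71 in NPC and 5.65 in NCSC. The 8.23-fold difference in DE had q = 0.0512 in the authors' deposited table, just above the threshold. When p-values were instead taken from a normal distribution of the authors' statistic, a choice made once the values had been seen, KCNG1 (Benjamini-Hochberg adjusted p = 0.00489) and KCNK12 (adjusted p = 0.0282) passed in DE. How many of all DE loci passed that way was not counted. In NPC KCNG1 fell. KCNS1 rose from 0.513 to 4.87 FPKM in MESO and fell from 0.587 to 0.0235 in NPC and from 0.550 to 0.0581 in NCSC. KCNF1 rose from 0.279 to 1.07 in NCSC and was 0.352 and 3.10 in the DE table without passing. The summed level of the class was 25.3 FPKM in hESC and 83.2 in DE, of which KCNG1 alone made up 8.48 and 69.8. In the NPC table the sum was 24.0 in hESC and 8.13 in NPC.

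Of the 5 Kv7 genes, 4 were tested in each table, of which 1 rose and 1 fell in MESO, 1 fell in NPC and none passed in DE or NCSC. KCNQ5 rose from 0.0732 to 0.761 FPKM in MESO, below the detection level. KCNQ3 stayed below 1 FPKM in all columns.

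Of the EAG, ERG and ELK genes, KCNH2 rose from 6.64 to 12.5 FPKM in NCSC (q = 0.0338 in the authors' deposited table), and stood at 2.08 in DE, 4.22 in MESO and 5.86 in NPC against 7.97, 6.27 and 6.95 without passing. Its relative KCNH6 fell from 1.57 to 0.0574 in MESO, 1.65 to 0.0431 in NPC and 1.56 to 0.0429 in NCSC. KCNH6 was thus near 0 in these 3 derivatives. KCNH5, of the EAG type, rose from 0.0761 to 0.908 in NPC. KCNH8, of the ELK type, was 0.954 in hESC and 5.08 in DE without passing.

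Calcium-activated channels of the small-conductance type were mostly lower in derivatives. KCNN1 was 7.25, 5.94, 6.25 and 5.88 FPKM in hESC and 2.73 in DE, 0.447 in MESO, 2.42 in NPC and 1.74 in NCSC, and passed in all but DE. KCNN2 was 4.49, 8.31, 9.78 and 9.19 in hESC and 1.54 in DE, 3.34 in MESO, 1.42 in NPC and 0.945 in NCSC, and passed in NPC and NCSC. KCNN3 had a different pattern, falling from 0.474 to 0.0833 FPKM in MESO and rising from 0.557 to 1.65 in NPC. Over the class the sum was 16.8 FPKM in hESC and 5.56 in NPC, and 15.8 and 3.67 in the NCSC table.

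The large-conductance channels moved apart. KCNT2, a sodium-activated channel gene on chromosome 1 (196194912 to 196578008, hg19), was 3.32, 2.62, 4.01 and 3.34 FPKM in the hESC columns of the DE, MESO, NPC and NCSC tables. It stood at 3.24 in DE and 2.05 in MESO, and rose to 17.2 in NPC and 11.3 in NCSC, 4.30-fold and 3.39-fold, each with the lowest q of its table (0.000323 and 0.000455 in the authors' deposited table). Other members share these lowest q-values. KCNMA1, the BK channel gene prominent in smooth muscle, fell from 2.88 to 0.776 in NPC and from 2.71 to 0.439 in NCSC. In MESO it was listed at 2.54 in hESC and 14.7, and did not pass, at q = 0.0610 by the authors' deposited table. Of the smooth muscle markers 2 of 4 rose in MESO, summing (without TAGLN, in a merged locus) to 17.7 FPKM in hESC and 47.2 in MESO. Cardiomyocyte markers summed to 6.27 and 18.2 there, of which MYL7, the only 1 of 6 that passed, made up 1.63 and 12.2. MYH6 stood at 0.0785 and MYH7 at 0.0288 in MESO, where all 6 amnion and trophoblast markers rose. The part of any of these cell types in the MESO levels of KCNMA1 and KCNJ2 was not tested.

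Of the auxiliary subunits 3 of 15 were called in any table. KCNE3, which holds KCNQ channels open, rose from 1.28 to 5.81 FPKM in MESO and fell from 1.36 to 0.478 in NCSC, and was 1.91 and 6.82 in the DE table without passing. KCNAB3, a beta subunit of Shaker-type channels, rose from 0.539 to 1.91 in NPC and from 0.391 to 2.63 in NCSC. KCNMB4, the neuronal beta subunit of the BK channel, fell from 6.29 to 2.28 in NPC, and stood at 8.69 in DE, 10.1 in MESO and 8.53 in NCSC against 7.62, 5.40 and 7.38 without passing. Its hESC level was above that of the pore gene KCNMA1 in all 4 tables. Of the KCNIP genes, partners of KCND channels, none passed.

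**Figure D3:**
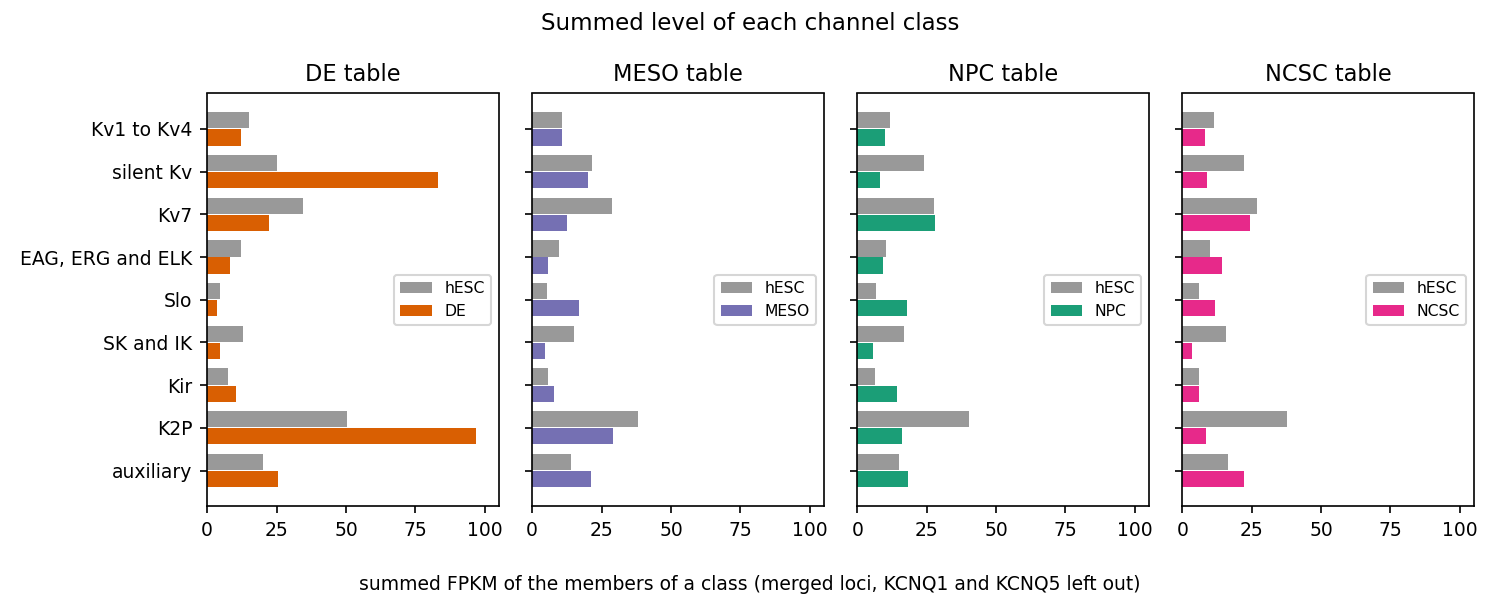
Summed FPKM (horizontal axis, from 0) of each channel class in hESC (grey) and the derivative (colour), 1 panel per table, without merged loci, KCNQ1 and KCNQ5. The K2P and silent Kv bars are longer in DE than in hESC and shorter in NPC and NCSC. In DE most of the silent Kv bar is KCNG1 and most of the K2P bar is KCNK1 and KCNK12, none of which passed there.

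The number of detected members was 33 in hESC and 29 in DE, 30 and 21 in the MESO table, 33 and 26 in the NPC table, and 32 and 22 in the NCSC table. From hESC to DE 6 members crossed 1 FPKM upward and 10 downward, to MESO 2 and 11, to NPC 6 and 13, and to NCSC 3 and 13. The doubtful KCNQ1 row is among the downward crossings of each table, and the doubtful KCNQ5 row counts as detected in both columns of the NCSC table. The median change over the 94 members was -0.04 in DE, -0.05 in MESO, -0.07 in NPC and -0.07 in NCSC, beside 0.00, 0.00, -0.01 and -0.01 over all loci. Over members with a mean of at least 1 FPKM it was -0.23, -0.49, -0.48 and -0.38, and over all such loci 0.05, 0.08, -0.26 and -0.22. Of the members with that mean, 58.8% were lower in DE, 65.5% in MESO, 54.5% in NPC and 65.5% in NCSC, beside 45.3%, 44.7%, 61.8% and 61.1% of all such loci, so that the members' share was below that of the loci in NPC. With the normal p-values, calls no longer passed, among the members described here, for KCNE3, KCNJ10, KCNK6, KCNN3 and KCNQ5 in MESO, for KCNA6, KCNAB3, KCNC4, KCND2, KCNG1, KCNJ14, KCNK4, KCNMA1 and KCNN1 in NPC, and for KCNE3, KCNF1, KCNH2 and KCNMA1 in NCSC. In NPC 2 further members passed that way, KCNA4 as higher (adjusted p = 0.0338) and KCNJ8 as lower (adjusted p = 0.0271). KCNK9 in DE, MESO and NCSC and KCNK13 in NCSC have no finite statistic and could not be placed.

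**Figure D4:**
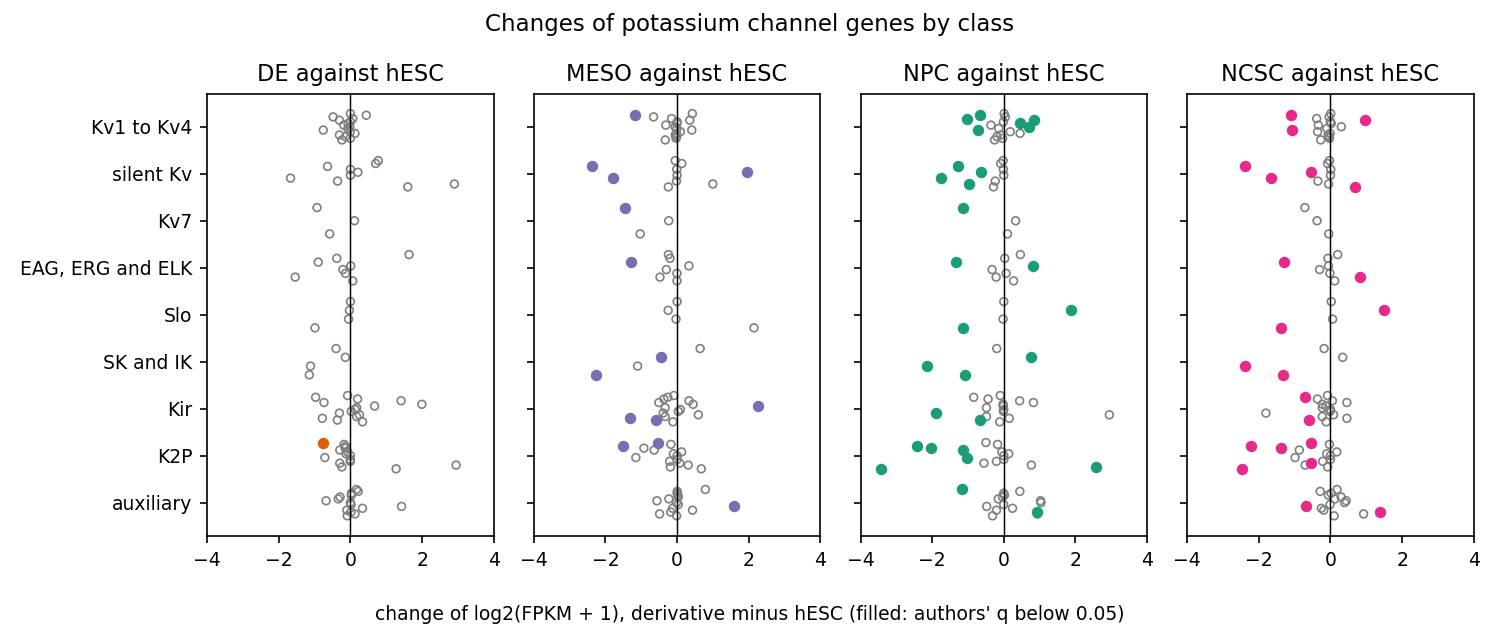
Change of log2(FPKM + 1), derivative minus hESC, of 92 members (without KCNQ1 and KCNQ5) by class, 1 panel per table; filled points have the authors' q below 0.05 and open points do not. Filled points lie mostly to the left of 0 in MESO, NPC and NCSC, and DE has a single filled point, KCNK9.

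**Figure D5:**
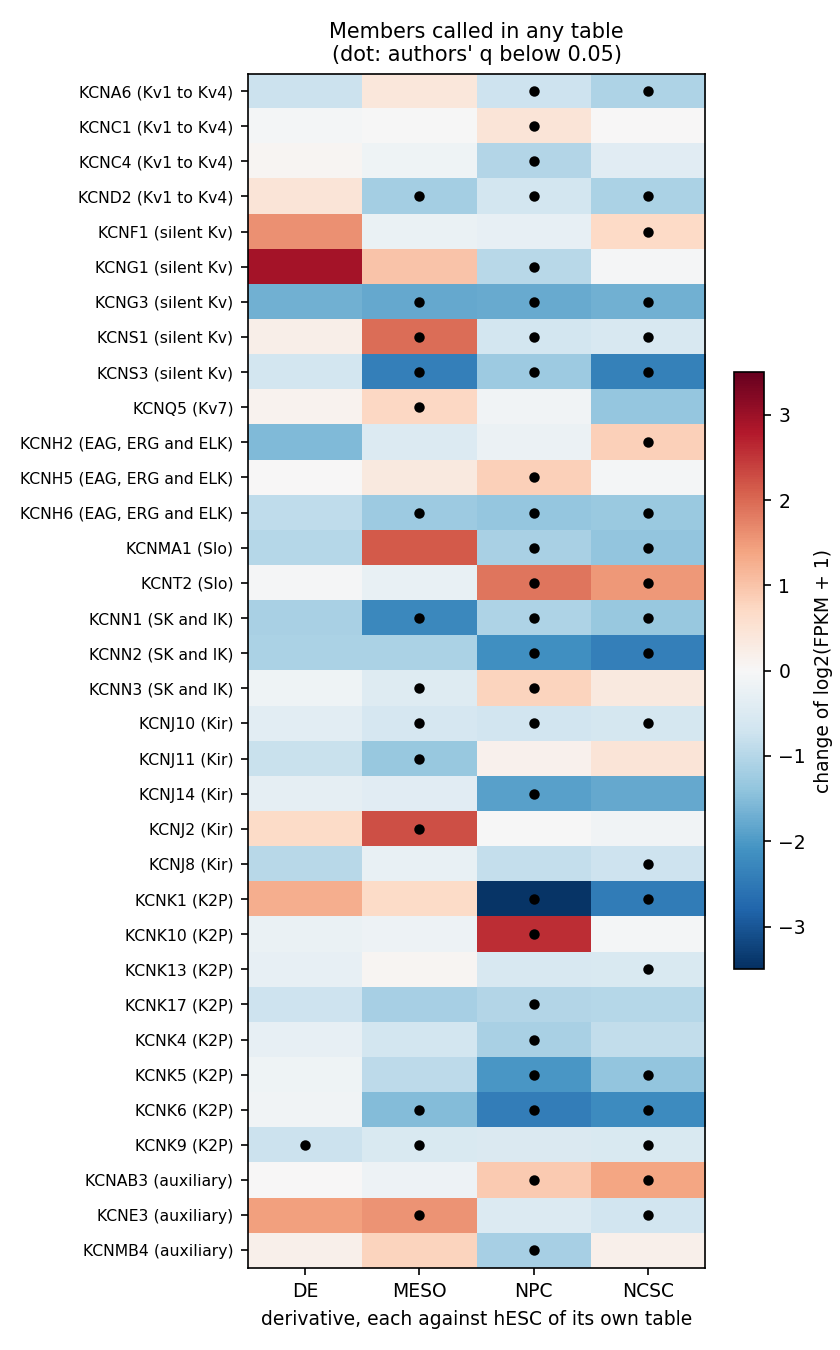
Change of log2(FPKM + 1) against hESC (colour) of 34 of the 37 members called in any table, 1 column per table, dots marking the authors' q below 0.05. KCNK5, KCNK6, KCNN1 and KCNS3 are blue in MESO, NPC and NCSC; KCNJ14 and KCNK4 are from merged rows, and the NCSC cell of KCNQ5 is from a row in doubt.

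Genes that work with these channels but lie outside the name rule were counted as well. Of 10 channel partners none passed in DE, where 4 were tested, or in MESO, where 5 were. In NPC 4 rose and 1 fell of 7 tested, where 12.0% of all loci rose and 24.8% fell. In NCSC 3 rose and 1 fell of 7 tested, where 10.2% of all loci rose and 19.7% fell. ABCC8, the sulfonylurea receptor that joins KCNJ11, rose from 0.206 to 0.809 FPKM in NPC and from 0.197 to 1.26 in NCSC. LRRC55, a gamma subunit of the BK channel, rose from 0.0985 to 2.73 in NPC and from 0.0912 to 6.93 in NCSC, where the pore gene KCNMA1 fell. DPP6, a partner of KCND channels, rose from a listed 0 to 0.877 in NPC and 0.581 in NCSC, while its relative DPP10 fell from 4.48 to 1.12 and from 4.18 to 1.25.

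The pacemaker channel gene HCN4 fell from 2.21 to 0.550 FPKM in MESO, 2.39 to 0.665 in NPC and 2.25 to 0.341 in NCSC. Of 15 genes of the sodium-potassium pump, which builds the gradient that the channels use, none of the 11 tested in DE passed. Of 12 tested in NPC 4 rose and 6 fell, and of 12 tested in NCSC 4 rose and 3 fell. In MESO 4 of 12 tested fell. Of all loci 12.0% rose and 24.8% fell in NPC, 10.2% rose and 19.7% fell in NCSC, and 5.37% fell in MESO. FXYD2 and FXYD6 share 1 row that rose in NPC and NCSC and is counted for both, and 1 other row that rose in NCSC is merged with a neighbouring gene.

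Of the voltage-gated channels for other ions, 5 of 7 tested sodium channel genes and 5 of 7 tested calcium channel genes fell in MESO and 0 and 1 rose, beside 5.37% of all loci that fell there. The calcium channel gene that rose there was CACNA1C, the cardiac and smooth muscle form (0.229 to 1.78 FPKM). In NPC 1 of 8 tested sodium channel genes rose and 4 fell, and of 7 tested calcium channel genes 2 rose and 2 fell. Of all loci 12.0% rose and 24.8% fell in NPC. In NCSC 3 of 7 tested sodium channel genes fell and none rose, and of 7 tested calcium channel genes 2 rose and 1 fell. Of all loci 10.2% rose and 19.7% fell in NCSC. None of either group passed in DE. CACNA1A, of the presynaptic type, rose from 1.89 to 7.70 in NPC and from 2.07 to 7.29 in NCSC. REST, a repressor of neuronal channel genes, fell from 24.4 to 14.5 in NPC and from 22.7 to 9.81 in NCSC. RCOR1, listed with REST, stood at 17.1 in hESC and in NPC, and at 15.9 and 19.3 in the NCSC table, without passing. In MESO RCOR1 rose from 14.6 to 34.7. Of 9 neuron markers, 8 of them tested in NPC, 2 rose there (DCX and STMN2) and 4 fell. Their sums were 174 FPKM in hESC and 67.6 in NPC, of which TUBB3 alone made up 137 and 37.5. The part of neurons in the NPC values was not tested.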

How the data were processed

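RNA was measured in 10 libraries, 2 per cell type. The submitters' processing notes name Cufflinks 2.2.1, featureCounts, Subread 1.5.2, TopHat2 2.0.13 and build hg19; which step used which, and how cell types were scaled, is not given in the sources used here. Per the file headers, the authors deposited 4 tables with 1 FPKM per cell type, a signed test statistic (a score), a p-value and a q-value. The lowest deposited p-value was 5e-05. The deposited log2 fold change column was not used. Rows with a statistic of 0 and the highest possible p-value count as not tested.

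Rows off chromosomes 1 to 22 and X were dropped, and a symbol with several rows was read from its highest. Changes used a pseudocount of 1 on the deposited FPKM. Calls are the authors' q below 0.05; limma was planned only for tables with a value per library and was not run. How the deposited p-values take in the spread between these libraries is not given, and that spread may be technical. The members, classes and lists were chosen with earlier results of these data known. By rule, members called in any table, reaching 5 FPKM or highest in their class were to be named, and others where a sentence on a class needed them; some of these are not reported here by name, in text or figures. Class sums leave out merged loci, KCNQ1 and KCNQ5, a choice made after seeing the data. Alternatives were other pseudocounts, FPKM minima, quantile normalization, hESC values of other tables, row choices and stricter calls. Promoter windows are from RefSeq (GRCh38.p14) and were not joined to the hg19 coordinates. The steps for calling and row choice were tried on simulated data with large planted changes, which is no test of the authors' q-values. Python 3.11.15, pandas 2.3.3 and matplotlib 3.10.9 were used.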

Additional observations from a re-analysis of the deposited data

Results flagged for a closer look

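Members called in opposite directions in different tables are given here. The difference between the tables was not tested, and all share the hESC samples. The accessory subunit gene KCNE3 changed by 1.58 on the log2(FPKM + 1) scale in MESO and by -0.67 in NCSC. The silent subunit gene KCNS1 changed by 1.96 in MESO, -0.63 in NPC and -0.55 in NCSC. The small-conductance channel gene KCNN3 changed by -0.44 in MESO and 0.77 in NPC, from a hESC level below 1 FPKM in both tables.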

How the results depend on the processing

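No paired analysis was possible because the tables give 1 value per cell type, so leaving out a replicate and a replicate block were not run. Pseudocounts of 0.1 and 5 cannot turn the direction of a change and were no check of it. Of 62 called member changes with both levels above 0, all kept their direction with quantile normalization and centring. When hESC levels came from the other 3 tables, 61 did. KCNQ5 in MESO became -3.08, because its doubtful NCSC row then enters. Centring moved all changes of a table by the same amount, from -0.08 in MESO to 0.26 in NPC. Such an amount can turn only smaller changes of the opposite sign, so centring was little check of direction. Quantile normalization moved the 62 changes by -0.14 to 0.31. Counts of called members (1 in DE, 15 in MESO, 28 in NPC and 22 in NCSC) were 0, 11, 17 and 13 with a minimum change of 1 (DE, NPC and NCSC beyond 1.5 times), 0, 9, 19 and 17 at q below 0.01, and 2, 9, 20 and 15 with normal p-values (without calls that have no finite statistic), chosen after seeing the data as were the mean minimum, the centring and the quantile normalization of single members. In DE the count was also 0 where 1 FPKM was required of one cell type or the other. No locus of DE could pass at q below 0.01, because the lowest q there was 0.0186. Shares of all loci under these settings were otherwise not counted. With that minimum the median change was -0.14 in DE, -0.54 in MESO, -0.48 in NPC and -0.71 in NCSC, and with a mean of at least 1 FPKM -0.23, -0.49, -0.48 and -0.38. With a pseudocount of 0.1 it was -0.25 in MESO, -0.30 in NPC and -0.38 in NCSC. Centring the 94 members on loci with a mean of at least 1 FPKM gave 0.19 in NPC and 0.15 in NCSC, which follows from setting mostly undetected members against detected loci. With members and loci both at that mean it was -0.28 in DE, -0.57 in MESO, -0.21 in NPC and -0.16 in NCSC, an alternative also added after seeing the data. At 5 FPKM 11, 9, 7 and 8 members were detected in DE, MESO, NPC and NCSC, and at 0.5 FPKM 35 in MESO. Depth is unknown, so no limit for listed zeros can be given.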

Other observations

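Several members lie next to each other in the genome (hg19, loci of the NPC table no more than 200000 bases apart). The two-pore genes KCNK5, KCNK17 and KCNK16 follow each other on chromosome 6, with KCNK5 ending 69287 bases before KCNK17 and KCNK17 ending 236 bases before KCNK16. KCNK5 and KCNK17 both fell in NPC, and KCNK16 was listed at 0 in every column. On chromosome 17 KCNJ16 ends 33929 bases before KCNJ2. KCNJ16 was listed at 0 in hESC and at 0.0661 FPKM in MESO, where KCNJ2 rose to 4.78. On chromosome 12 KCNA6 is followed by KCNA1 and KCNA5, and of these 3 only KCNA6 was detected in any cell type. KCNJ10 and KCNJ9 are 11308 bases apart on chromosome 1. KCNJ10 fell in MESO, NPC and NCSC, and KCNJ9 was at most 0.0873 FPKM and not tested.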
